A study of Mus musculus with 8 samples.

Results

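The extracellular matrix genes described here code for collagens, laminins and the matrix glycoproteins fibronectin, the fibrillins, the nidogens, SPARC, perlecan, versican, tenascin C, agrin, lumican and decorin. The rule that picked them matches gene symbols and uses no measured value, but these genes and the gene lists below were chosen with earlier results of these data known. The brain table held 58 of them among 14496 genes, and the embryonic stem cell table held 20 among 9217 genes, of which 17 stood in both. Of the 58 genes in brain, 20 were placed in the basement membrane class, 22 in the fibrillar class and 16 in a class of other matrix genes. Col4a1 and Nid2 were measured in the stem cells alone and are not analysed here in brain.

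The 8 RNA-seq libraries are all from mouse, 6 from the brain of embryos and 2 from embryonic stem cells (mESC). The 3 NTD (neural tube defect) libraries came from embryos with hindbrain malformation or spina bifida, whose dams ate a low folate diet and were given methotrexate (MTX), a folate antagonist, at 1.5 mg/kg into the peritoneum on gestational day 7.5. The 3 control libraries carry the label normal saline and came from embryos with a closed neural tube. Both brain groups were collected between embryonic days 9.5 and 10.5. The labels give neither the diet of the control dams nor the strain, so diet and drug cannot be told apart, and NTD embryos were smaller and delayed, so stage and treatment cannot be told apart either. The Sv129 mESC were grown with no folic acid (FA0, 1 library) or with 4 mg/L folic acid (FA4, 1 library), with serum, leukemia inhibitory factor and gelatin-coated dishes in both. The labels do not say whether the brain libraries came from separate litters, so p-values here measure only the spread between these libraries.

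A basement membrane is the thin sheet of matrix on which an epithelium, the neural plate included, rests. Its laminins are trimers of an alpha, a beta and a gamma chain that assemble into a network, and type IV collagen forms another network that nidogens, perlecan and agrin link to the laminins. Fibrillar collagens, by contrast, are spun by mesenchyme and cartilage into cables, with the fibril-associated collagens on their surface, while fibronectin and the fibrillins form fibres of their own that cells pull on through integrins and syndecans.

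In NTD brain, 3 of the 49 matrix genes that passed the filter on low counts were called. Fibronectin (Fn1) and the laminin alpha 5 chain (Lama5) rose, and the collagen VIII alpha 2 chain (Col8a2) fell. The call is an adjusted p under 0.05 in edgeR's quasi-likelihood test with Benjamini-Hochberg adjustment over all 11626 genes tested, a threshold that 2.89% of those genes passed, 1.89% as higher and 0.998% as lower. At an unadjusted edgeR p under 0.05 there were 14 matrix genes of 49, against 1748 (15%) of all genes tested. DESeq2, run as an alternative, called 4 matrix genes higher (Col18a1, Fn1, Lama5 and Lamc1) and 5 lower (Col17a1, Col2a1, Col6a2, Col8a1 and Col8a2), where it called 5.24% of all genes higher and 3.67% lower. Between groups, 6 matrix genes were higher and 9 lower in all NTD libraries than in all control libraries, a separation that 12.4% of all genes tested showed as higher and 12.1% as lower. The 9 genes too low to test were Col4a4, Lama3, Lama4, Lamb3, Col20a1, Lum, Col25a1, Col6a4 and Col6a6. In whole-tissue RNA, fewer cells of a type and less RNA per cell cannot be told apart.

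For 2 of the 3 called genes, Lama5 and Col8a2, the RefSeq promoter table (GRCm38.p6) held the gene, so the 250 bases before their start sites are shown, 5′ to 3′ on the gene's own strand, because these genes were called in opposite directions. Capitals mark the GC box GGGCGG or its reverse complement.
Lama5, chr2:180225860-180226109, minus strand: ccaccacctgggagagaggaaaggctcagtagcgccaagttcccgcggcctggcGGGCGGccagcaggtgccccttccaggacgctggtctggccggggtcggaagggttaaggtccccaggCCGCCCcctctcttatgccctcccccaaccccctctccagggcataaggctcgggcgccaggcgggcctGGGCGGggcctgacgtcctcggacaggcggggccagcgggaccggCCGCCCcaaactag
Col8a2, chr4:126286544-126286793, plus strand: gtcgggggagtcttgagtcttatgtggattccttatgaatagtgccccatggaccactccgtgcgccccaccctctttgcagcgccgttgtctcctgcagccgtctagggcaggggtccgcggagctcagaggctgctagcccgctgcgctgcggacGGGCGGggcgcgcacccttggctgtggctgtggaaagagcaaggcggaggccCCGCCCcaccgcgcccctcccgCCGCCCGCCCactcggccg
Both windows were rich in G and C, at 72.4% for Lama5 and 70% for Col8a2, and both held 4 GC boxes, a pair of which overlap in Col8a2. Neither window held TATAAA or CCAAT on either strand. Among all 32851 RefSeq windows of this length, 32.7% held GGGCGG, 33.8% held CCAAT and 12.4% held TATAAA, on either strand. Over the 46 windows of the 40 matrix genes in the table, 65.2% held GGGCGG, 32.6% held CCAAT and 13% held TATAAA. Such a match describes letters and marks no binding site.

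Levels are given below in brain as CPM, the counts of a gene scaled to a fixed total per library with TMM factors, and each fold change is log2 of NTD over control with its standard error. The 6 libraries held 17335564 to 26788304 counts. In a principal component analysis, NTD library 3 and control library 1 stood apart on the second component, which held 23.3% of the variance (112.95 and 126.68, against -75.53 to -38.76 for the other 4 libraries). Without this pair of libraries Fn1 alone among the matrix genes was called. The tissue label was set against marker genes. Summed CPM of 12 neuron markers ran from 839 to 976 in NTD libraries and from 4335 to 6088 in control libraries, with 11 of 12 called lower and none at 0 in all libraries of a group. In NTD libraries the 15 visceral endoderm markers summed to 13184 to 15478 CPM, against 318 to 642 CPM in control libraries, with 6 of 15 called higher. Trophoblast markers, of which 11 of 12 were in the table, summed to 1226 to 1888 CPM in NTD libraries and 32.4 to 59.3 CPM in control libraries. Of these, 7 of 10 tested were called higher, and Prl3d3, Tpbpa and Prl8a9 were at 0 in all control libraries. Elf5 was too low to test, at 0 in all control libraries and at 0.0781, 0 and 0 CPM in NTD libraries. Neural progenitor markers summed to 1001 to 1589 CPM in NTD libraries and 2123 to 2786 CPM in control libraries, with 2 of 10 called lower. Over all genes tested, 1.89% were called higher and 0.998% lower. The sums of these marker lists differed between the groups in every library, and their part in the differences below was not tested.

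Of the 16 basement membrane genes tested, 11 had a positive and 5 a negative fold change, with a median of 0.73, against a median of -0.02 over all genes tested. Lama5 was called, 6 of the 16 had an unadjusted p under 0.05, and 5 were higher in all NTD libraries than in all control libraries (Lama5, Lamc1, Col18a1, Hspg2 and Col4a6). Lamc3 was lower in all NTD libraries. Over all 11626 genes tested, 5740 had a positive fold change, 1.89% were called higher and 15% had an unadjusted edgeR p under 0.05. In all NTD libraries 12.4% of them were higher and 12.1% lower than in all control libraries.

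Lama5 (2:180176373-180225859, minus strand, GRCm38) codes for the alpha chain that takes over in most epithelial basement membranes of the embryo as development goes on. Its level was 116, 81.2 and 106 CPM in NTD libraries 1 to 3 and 21.6, 41.1 and 24.1 CPM in control libraries 1 to 3. Every NTD library lay above every control library, and control library 2 was the highest of the controls. The means were 101 ± 17.8 CPM in NTD and 28.9 ± 10.6 CPM in control brain (SD, n = 3 each), a log2 fold change of 1.81 ± 0.38 (95% interval 0.95 to 2.66, edgeR adjusted p = 0.0393). The call was lost when any 1 library was left out, with edgeR adjusted p between 0.0565 and 0.168, and the fold change stayed positive in all 6 of those fits.

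Lamc1, the gamma chain of most laminins (1:153218922-153332786, minus strand), had 190, 284 and 439 CPM in NTD libraries and 106, 144 and 152 CPM in control libraries. The groups did not overlap, and the NTD libraries spread more widely than the controls. The fold change of 1.19 ± 0.32 missed the threshold (edgeR adjusted p = 0.097). Lamb1, the beta chain that pairs with it, had 63.6, 157 and 157 CPM in NTD libraries and 107, 122 and 83.1 CPM in control libraries, so that NTD library 1 was the lowest of all 6. Its fold change was 0.28 ± 0.38 (95% interval -0.57 to 1.12, edgeR adjusted p = 0.855).

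Lama1, the alpha chain of the earliest embryonic basement membranes and of parietal endoderm, had 68.4, 82.7 and 65.1 CPM in NTD libraries and 38.5, 67.6 and 63 CPM in control libraries. These values overlapped, with control library 1 the lowest (log2 fold change 0.35 ± 0.35, edgeR adjusted p = 0.762). The balance between the alpha chains was read per kb. Per kb of exon, Lama5 made up 55.1%, 45.5% and 55.2% of the 5 alpha chain genes in NTD libraries and 23.9%, 31.5% and 23.2% in control libraries. The shares did not overlap, at 52.0% ± 5.59 in NTD and 26.2% ± 4.59 in control brain (SD, n = 3 each), and no test was run on them. The ratio of Lama5 to Lama1 per kb was 1.44, 0.835 and 1.39 in NTD libraries and 0.476, 0.517 and 0.324 in control libraries. Lama5 was thus the more abundant alpha chain transcript per kb in 2 of 3 NTD libraries and Lama1 in all 3 control libraries.

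Lama2, the alpha chain known from muscle and nerve, varied within both groups, at 11, 0.0388 and 13.5 CPM in NTD libraries and 33.4, 14 and 7.52 CPM in control libraries. Lama4, typical of vessels, was too low to test, with 6.48, 0 and 0.0601 CPM in NTD libraries and 0, 0.292 and 0.157 CPM in control libraries. Neither gives a direction. Among gamma chains, Lamc3 stood at 0, 1.94 and 0 CPM in NTD libraries and at 16.3, 17.8 and 20.8 CPM in control libraries. The controls agreed closely and no NTD library came near them, but the fitted fold change of -4.80 ± 2.10 was imprecise (95% interval -9.52 to -0.08, edgeR adjusted p = 0.323).

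**Figure D1:**
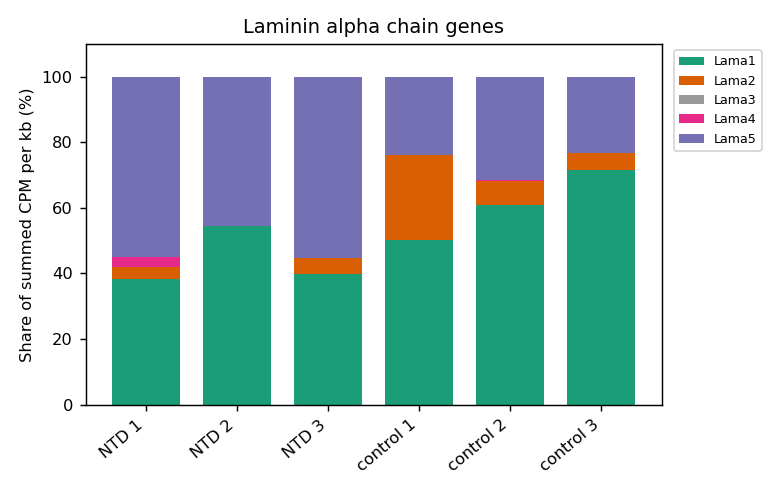
Share of each gene in the summed CPM per kb of exon of the laminin alpha chain genes, in percent, 1 stacked bar per brain library. Lama5 takes 45.5% to 55.2% of the alpha chains in NTD libraries and 23.2% to 31.5% in control libraries, and Lama1 takes most of the rest.

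Type IV collagen, the second network of the sheet, was read in brain through Col4a2 (8:11312805-11449287, plus strand). It had 218, 390 and 195 CPM in NTD libraries and 129, 208 and 144 CPM in control libraries. NTD libraries were higher on average but overlapped the controls, since control library 2 lay above NTD library 3 (log2 fold change 0.74 ± 0.32, edgeR adjusted p = 0.315). The kidney and eye chains were sparse. Col4a6 had 34.9, 19.4 and 21.6 CPM in NTD libraries and 0, 13.8 and 18.6 CPM in control libraries (log2 fold change 1.23 ± 1.46, edgeR adjusted p = 0.821). Col4a4 had 481 counts in control library 3 and none in the other 5 libraries.

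Col18a1, a basement membrane collagen with heparan sulfate chains whose end fragment is endostatin, had 333, 266 and 268 CPM in NTD libraries and 157, 196 and 149 CPM in control libraries. The groups were clearly apart and each was tight. Its fold change was 0.79 ± 0.23 (95% interval 0.28 to 1.30), with an edgeR adjusted p of 0.113. Perlecan (Hspg2), the large heparan sulfate proteoglycan of the sheet, had 122, 98 and 155 CPM in NTD libraries and 62.8, 78.5 and 60.9 CPM in control libraries. These did not overlap either (log2 fold change 0.89 ± 0.30, edgeR adjusted p = 0.171). Agrin (Agrn), the other main proteoglycan, had 284, 245 and 230 CPM in NTD libraries and 448, 215 and 175 CPM in control libraries. Control library 1 stood far above the rest, and the fold change of -0.14 ± 0.34 became 0.38 without it. Nidogen 1 (Nid1), the linker, had 62.7, 7.37 and 13.3 CPM in NTD libraries and 14.1, 7.82 and 28.7 CPM in control libraries, a spread within groups wider than the difference between them (log2 fold change 0.72 ± 0.89, edgeR adjusted p = 0.832). Col15a1, the relative of Col18a1, averaged 46.7 ± 21.2 CPM in NTD and 58.5 ± 20.8 CPM in control brain. Lamb2 and Col4a5 also overlapped between groups, with log2 fold changes of -0.26 ± 0.66 and 0.92 ± 2.63.

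Parietal endoderm lays down a thick basement membrane, and endothelium another, so their markers are set beside these values. The 9 parietal endoderm markers summed to 216 to 249 CPM in NTD libraries and 101 to 156 CPM in control libraries. Of 8 tested, Gata4 and Krt19 were called higher, none of the 9 was at 0 in all control libraries, and the median log2 fold change was -0.07, with 4 of the 8 negative (Thbd, Plat, Pth1r and Fst). Endothelial markers, with 10 of 11 in the table, summed to 480 to 544 CPM in NTD libraries and 297 to 395 CPM in control libraries, with Flt1 called higher and none of them at 0 in all control libraries. Their median log2 fold change was 0.30, and Tie1, Emcn, Egfl7 and Cldn5 were negative. Only Kdr and Flt1 were higher in all NTD libraries. Kdr averaged 175 CPM in NTD and 109 CPM in control brain, and Flt1 averaged 114 CPM in NTD and 29.0 CPM in control brain. Over all genes tested, 1.89% were called higher, and 12.4% were higher in all NTD libraries. The parietal endoderm and endothelial sums were both higher in every NTD library than in any control library, and their part in the result was not tested.

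In the fibrillar class fibronectin was the called gene. Of 20 genes tested, 9 had a positive and 11 a negative fold change, with a median of -0.19. Fn1 was called higher, as were 1.89% of all genes tested. Col2a1 and Col9a3 were lower in all NTD libraries than in all control libraries, as were 12.1% of all genes tested.

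Fn1 (1:71585520-71653200, minus strand) codes for fibronectin, which cells assemble into fibrils through integrins and which early mesoderm and endoderm produce in quantity. Its level was 161, 113 and 141 CPM in NTD libraries and 47.6, 28.1 and 31.1 CPM in control libraries. The lowest NTD library lay well above the highest control library. The means were 138 ± 24.1 CPM in NTD and 35.6 ± 10.5 CPM in control brain (SD, n = 3 each), a log2 fold change of 1.96 ± 0.33 (95% interval 1.21 to 2.71, edgeR adjusted p = 0.0162). Leaving out NTD library 1 or 3, or control library 2 or 3, ended the call, with edgeR adjusted p of 0.106, 0.0623, 0.0742 and 0.0581, and Fn1 remained higher in each fit. The visceral endoderm marker sums given above moved the same way as Fn1, which that endoderm also expresses, and their part in this change was not tested.

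The chains of type I collagen, the main collagen of mesenchyme and bone, were the most abundant fibrillar transcripts and did not pass the test. Col1a1 had 618, 664 and 1237 CPM in NTD libraries and 690, 342 and 637 CPM in control libraries (log2 fold change 0.59 ± 0.34, edgeR adjusted p = 0.488). Col1a2 had 440, 480 and 728 CPM in NTD libraries and 730, 562 and 711 CPM in control libraries (log2 fold change -0.28 ± 0.24, edgeR adjusted p = 0.706). Each gene overlapped between groups, but their ratio did not. Type I collagen is mostly a trimer with more alpha 1 than alpha 2 chain. Per kb, Col1a1 over Col1a2 was 2.66, 2.62 and 3.22 in NTD libraries and 1.79, 1.15 and 1.70 in control libraries, and no test was run on this ratio.

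Col2a1, the fibrillar collagen of notochord and cartilage, had 275, 233 and 317 CPM in NTD libraries and 451, 535 and 469 CPM in control libraries. The groups were apart, with means of 275 ± 42.3 CPM in NTD and 485 ± 44 CPM in control brain (SD, n = 3 each). The fold change was -0.82 ± 0.20 (95% interval -1.28 to -0.36), and its edgeR adjusted p of 0.0726 missed the threshold. Col9a3, a fibril-associated collagen on the surface of type II fibrils, had 1.48, 14.7 and 8.96 CPM in NTD libraries and 27.1, 36.7 and 36.8 CPM in control libraries. It was low in every NTD library, at 8.37 ± 6.61 CPM in NTD and 33.5 ± 5.6 CPM in control brain (SD, n = 3 each, edgeR adjusted p = 0.295). Col11a1, their partner in the fibril core, had 28.5, 69.8 and 138 CPM in NTD libraries and 200, 78 and 174 CPM in control libraries, with overlap. Notochord and cartilage markers, 7 of 9 in the table, summed to 113 to 133 CPM in NTD libraries and 105 to 213 CPM in control libraries, and none of the 5 tested was called. Among them Sox9 was lower in all NTD libraries (log2 fold change -1.81 ± 0.66, edgeR adjusted p = 0.216). T was higher in all NTD libraries (3.07 ± 1.78, edgeR adjusted p = 0.503). Over all genes tested, 12.4% were higher and 12.1% lower in this way.

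The remaining fibrillar genes gave no separation. Col3a1, the collagen of soft tissue and vessel walls, averaged 37.4 ± 8.24 CPM in NTD and 54.2 ± 23 CPM in control brain. Col5a1, which starts fibrils, averaged 194 ± 17 CPM in NTD and 180 ± 29.4 CPM in control brain, and its partner Col5a2 averaged 131 ± 21.3 CPM in NTD and 116 ± 23.5 CPM in control brain. Their edgeR adjusted p were 0.703, 0.918 and 0.88. Fibrillin 1 (Fbn1), the core of microfibrils, had 95.8, 75.5 and 60.2 CPM in NTD libraries and 77.4, 36.5 and 50.9 CPM in control libraries, and 20.1% of its exon bases overlap a gene on the other strand. Fibrillin 2 (Fbn2), its fetal relative, had 281, 182 and 202 CPM in NTD libraries and 179, 327 and 207 CPM in control libraries. Both overlapped between groups (edgeR adjusted p = 0.676 and 0.945). Mesenchyme markers, 14 of 14 in the table, summed to 476 to 739 CPM in NTD libraries and 595 to 621 CPM in control libraries, with none of 13 tested called.

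Col9a1, Col9a2, Col11a2, Col14a1, Col16a1, Col22a1 and Col5a3 were low, overlapped between groups and had edgeR adjusted p from 0.763 (Col14a1) to 0.965 (Col11a2).

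Within-group swings were large for a few of these genes. Col12a1 had 4.06, 4.34 and 127 CPM in NTD libraries and 132, 1.13 and 91.7 CPM in control libraries. Decorin (Dcn), a small proteoglycan that coats fibrils, had 28, 2.56 and 158 CPM in NTD libraries and 95.7, 19.2 and 39.5 CPM in control libraries. Among the 51 matrix genes with 100 counts or more in some library, 11 also had 3 or fewer counts in another library of the same group, against 26.8% of the 12437 genes of the whole table with such a count. For the genes concerned a group mean says little.

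**Figure D2:**
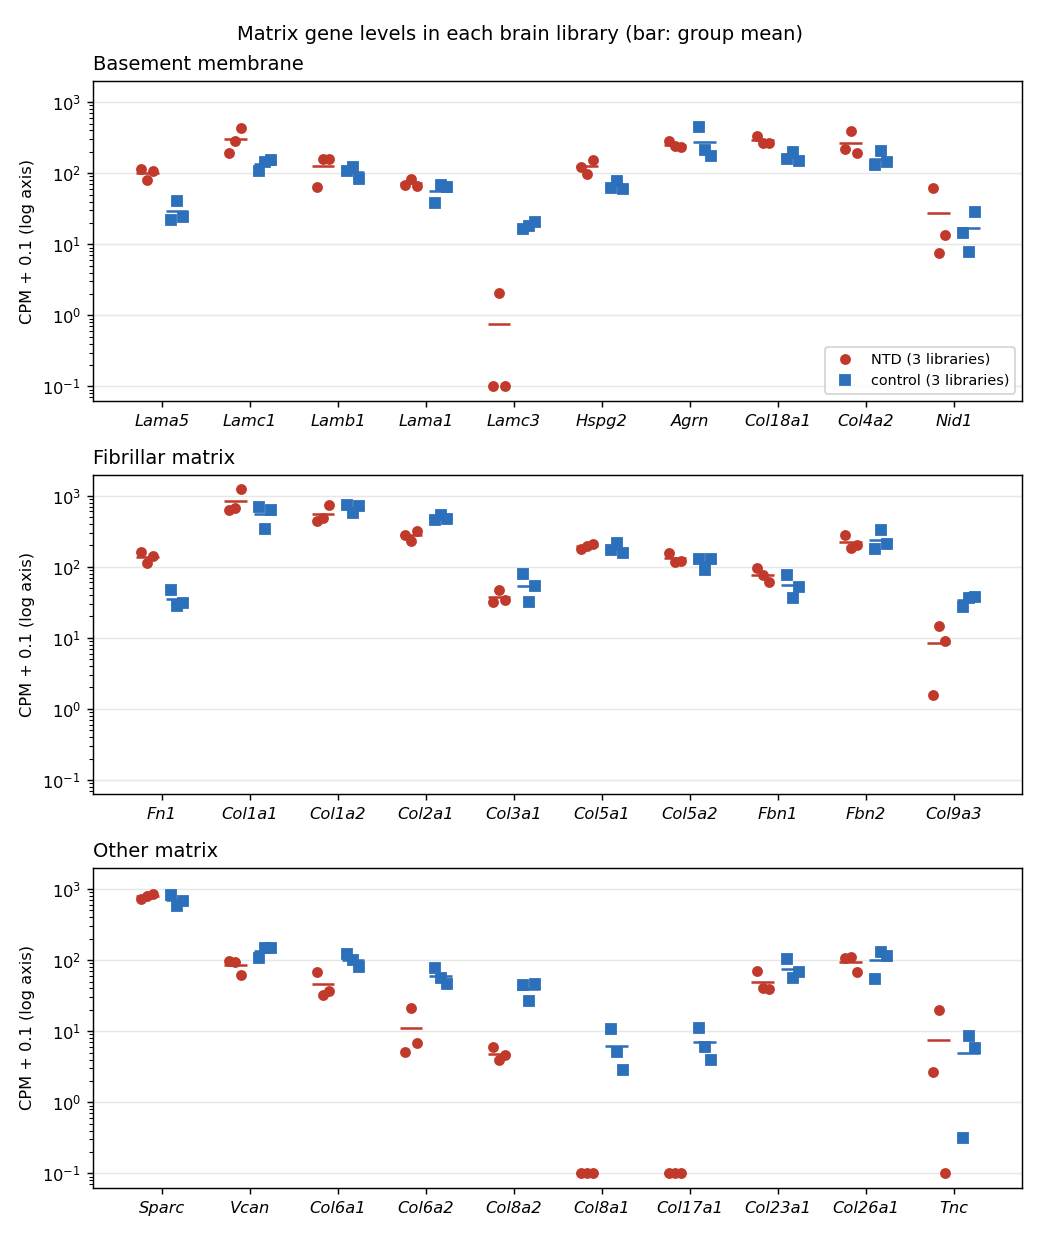
Level of 30 matrix genes in each brain library, as CPM plus 0.1 on a log axis, with the basement membrane, fibrillar and other classes from top to bottom, red circles for NTD, blue squares for control and a bar at each group mean. Lama5, Lamc1, Hspg2, Col18a1 and Fn1 lie higher in every NTD library. Lamc3, Col2a1, Col9a3, Col6a1, Col6a2, Col8a1, Col8a2, Col17a1 and Vcan lie lower.

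The third class, of collagens and glycoproteins outside both structures, leaned the other way. Of 13 tested, 3 had a positive and 10 a negative fold change, with a median of -0.60. Col8a2 was called lower, and Col6a1, Col6a2, Col8a1, Col8a2, Col17a1 and Vcan were each lower in all NTD libraries than in all control libraries. No gene of this class was higher in all NTD libraries. Over all genes tested, 12.4% were higher and 12.1% lower in this way, and 0.998% were called lower.

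Col8a2 (4:126286793-126314330, plus strand) codes for a short-chain, network-forming collagen known from the Descemet membrane of the cornea and from vessels. It had 5.86, 3.84 and 4.51 CPM in NTD libraries and 45.3, 26.2 and 45.7 CPM in control libraries. The NTD values were tight and far below the controls, at 4.74 ± 1.03 CPM in NTD and 39.1 ± 11.2 CPM in control brain (SD, n = 3 each). The log2 fold change was -3.04 ± 0.64 (95% interval -4.48 to -1.60, edgeR adjusted p = 0.0387), and it too lost its call without any 1 library, with edgeR adjusted p between 0.086 and 0.216. Its partner chain Col8a1 had no count in NTD libraries and 10.7, 4.93 and 2.71 CPM in control libraries. The control mean of Col8a1 was 44.4-fold a set floor of 3 counts per NTD library, a ratio that is not a bound on the difference. Col17a1, the transmembrane collagen of hemidesmosomes, likewise had no count in NTD libraries and 11, 5.88 and 3.86 CPM in control libraries, a mean 50.1-fold that floor. Neither passed the threshold (edgeR adjusted p = 0.14 for Col8a1 and 0.126 for Col17a1). The 95% interval of the fitted log2 fold change was -16.96 to -3.32 for Col8a1 and -16.96 to -3.66 for Col17a1.

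Type VI collagen forms beaded filaments between basement membrane and fibrils. Col6a1 (10:76708792-76726168, minus strand) had 67.5, 32.6 and 36.3 CPM in NTD libraries and 123, 99.6 and 79.2 CPM in control libraries. Col6a2 (10:76595762-76623630, minus strand) had 4.92, 21.3 and 6.67 CPM in NTD libraries and 77.1, 55.5 and 46.4 CPM in control libraries. Both were low in all NTD libraries, and they lie 85.2 kb apart on the same strand. The fold change was -1.15 ± 0.38 for Col6a1 and -2.44 ± 0.65 for Col6a2, with edgeR adjusted p of 0.172 and 0.0908. Per kb, Col6a1 over Col6a2 was 26.1, 2.91 and 10.3 in NTD libraries and 3.03, 3.41 and 3.24 in control libraries, where it was close to constant. Col6a3, the chain encoded on another chromosome, averaged 18.5 ± 18.4 CPM in NTD and 28 ± 27.9 CPM in control brain (edgeR adjusted p = 0.883).

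Versican (Vcan), a large hyaluronan-binding proteoglycan of loose embryonic matrix and neural crest paths, had 97.5, 95.6 and 61 CPM in NTD libraries and 109, 148 and 146 CPM in control libraries. It was lower in every NTD library, by little against control library 1 (log2 fold change -0.67 ± 0.30, edgeR adjusted p = 0.34). SPARC (Sparc), a collagen-binding protein that cells secrete in quantity, had 723, 806 and 842 CPM in NTD libraries and 837, 581 and 679 CPM in control libraries. The groups overlapped, and the 95% interval of its fold change ran from -0.27 to 0.62. Tenascin C (Tnc), an anti-adhesive glycoprotein of migrating cells, had 2.58, 20 and 0 CPM in NTD libraries and 0.216, 8.44 and 5.74 CPM in control libraries, with no direction. Of the remaining transmembrane and minor collagens, Col23a1 averaged lower in NTD brain (log2 fold change -0.60 ± 0.39, edgeR adjusted p = 0.576), and Col26a1, Col13a1 and Col7a1, the anchoring fibril collagen, had adjusted p of 0.967, 0.934 and 0.982.

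Per kb of exon, Sparc was the most abundant matrix transcript in both groups, at 209 ± 16 CPM per kb in NTD and 185 ± 34 CPM per kb in control brain, followed by Col1a1 at 128 ± 52.5 CPM per kb in NTD and 84.8 ± 28.6 CPM per kb in control brain (SD, n = 3 each). In NTD brain Col1a2 (44.2 ± 12.6), Col18a1 (41.2 ± 5.42), Col4a2 (40.4 ± 16.1), Lamc1 (36.8 ± 15.2) and Col2a1 (29.7 ± 4.57 CPM per kb) came next, and neighbours in this order from Col1a2 down did not differ beyond their SD. In control brain Col1a2 (53.7 ± 7.42) and Col2a1 (52.5 ± 4.76) stood level, above Agrn (30.1 ± 15.9), Col4a2 (24.2 ± 6.33) and Col18a1 (23.8 ± 3.61 CPM per kb).

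Summed over its 20 genes, the basement membrane class held 1587, 1687 and 1769 CPM in NTD libraries and 1263, 1199 and 1009 CPM in control libraries. Every NTD sum lay above every control sum, at 1681 ± 91.4 CPM in NTD and 1157 ± 132 CPM in control brain (SD, n = 3 each). The fibrillar sum was 2378, 2276 and 3662 CPM in NTD libraries and 3110, 2418 and 2896 CPM in control libraries, with overlap and with NTD library 3 the highest of all. The other class summed to 1115, 1151 and 1096 CPM in NTD libraries and 1430, 1142 and 1226 CPM in control libraries, where control library 2 fell below NTD library 2.

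The ratio of basement membrane to fibrillar sums was 0.667, 0.741 and 0.483 in NTD libraries and 0.406, 0.496 and 0.348 in control libraries. NTD library 3, with its high type I collagen, lay just under control library 2, so the groups overlapped. On the log2 scale the mean ratio was 0.59 higher in NTD, and between 0.46 and 0.77 higher when any 1 library was left out. With Col1a1 and Col1a2 taken out of the fibrillar sum, an alternative chosen after seeing the data, the ratios were 1.20, 1.49 and 1.04 in NTD libraries and 0.747, 0.792 and 0.652 in control libraries, and no longer overlapped. No p is given for these sums, since they add up genes whose results were known.

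The medians tell the same order without weighting by abundance. Among genes with a mean of 20 CPM or more, the median log2 fold change was 0.72 over 11 basement membrane genes, -0.28 over 15 fibrillar genes and -0.63 over 8 other genes, against -0.0018 over all 6701 such genes. Positive fold changes were found for 8 of the 11, 6 of the 15 and 1 of the 8. These medians describe the classes, and a difference between them was not tested.

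**Figure D3:**
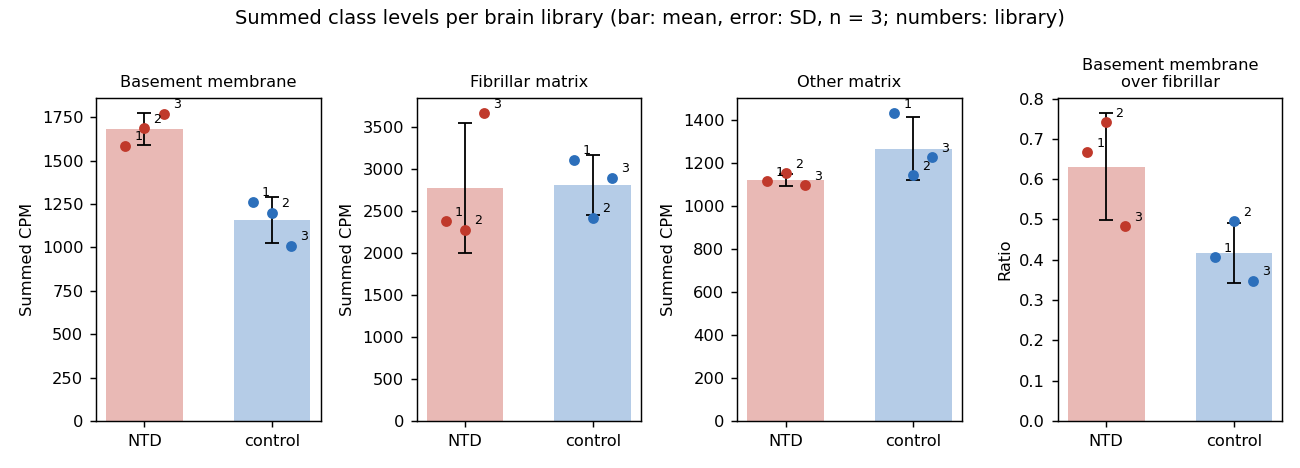
Summed CPM of the basement membrane, fibrillar and other matrix genes and the ratio of the first to the second, per brain library (numbered points), with bars for the group mean and error lines for the SD (n = 3). Basement membrane sums separate, at 1587 to 1769 CPM in NTD and 1009 to 1263 CPM in control libraries, while the fibrillar sums overlap.

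**Figure D4:**
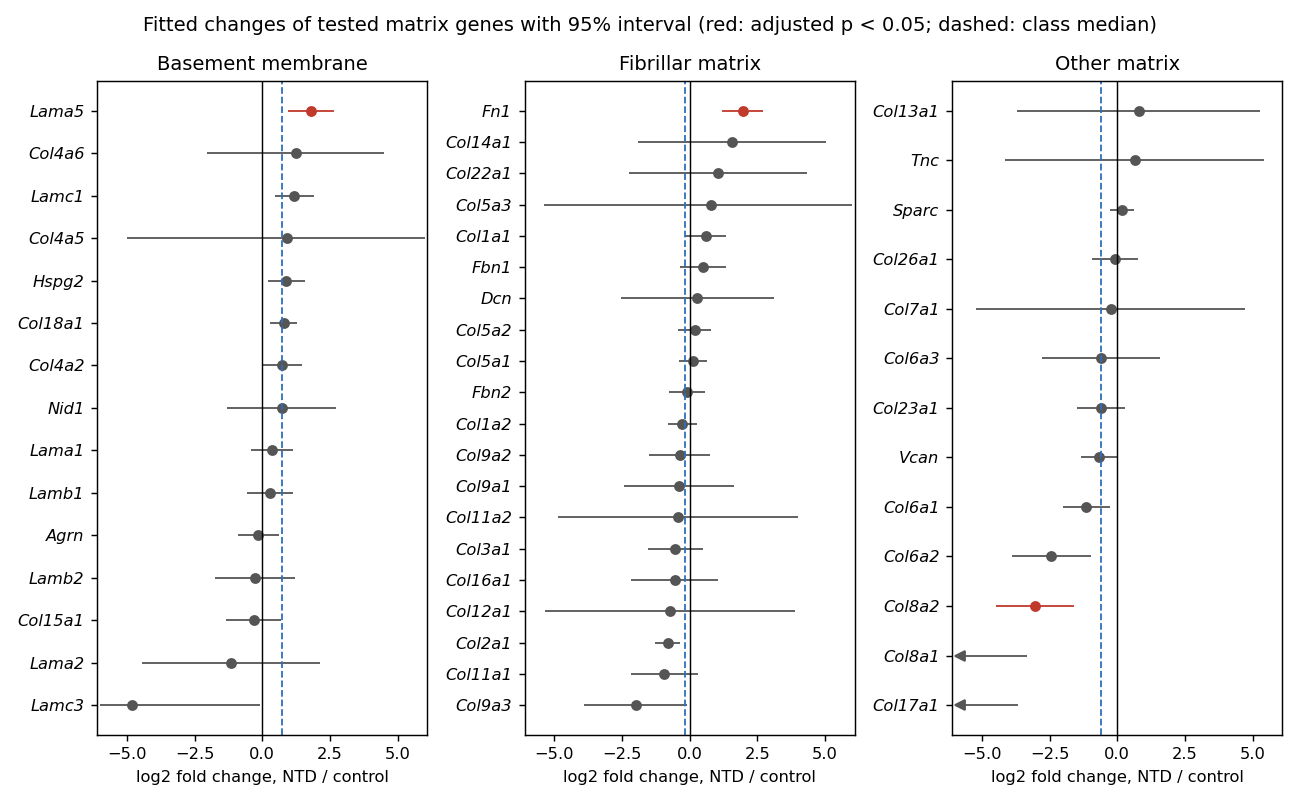
Log2 fold change, NTD over control, of the tested matrix genes in their 3 classes, 1 gene left out, with 95% intervals, red for adjusted p under 0.05, and a dashed line at the class median (0.73, -0.19 and -0.60). Points and intervals beyond the axis are cut at its edge, and arrows mark Col8a1 and Col17a1, whose fitted values lie further left because they had no count in NTD libraries.

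Genes that make, link, bind and cut the matrix were looked at as lists chosen by known role. Beside the counts below, 2.89% of all genes tested were called, and 12.4% were higher and 12.1% lower in all NTD libraries. Of the enzymes and chaperones that modify and secrete collagen, 19 of 26 were in the table and 17 tested, with none called, 4 higher and none lower in all NTD libraries, and a median of 0.60. P4ha1 and P4ha2, alpha subunits of the prolyl 4-hydroxylases that hydroxylate collagen prolines so that the helix is stable, had the smallest p of the list. P4ha1 had 537, 493 and 967 CPM in NTD libraries and 302, 177 and 289 CPM in control libraries (log2 fold change 1.38 ± 0.32, edgeR adjusted p = 0.0536). P4ha2 had 89.9, 76.5 and 68.5 CPM in NTD libraries and 36.9, 19.0 and 12.5 CPM in control libraries (1.78 ± 0.47, edgeR adjusted p = 0.0885). Neither overlapped between groups. Among 5 crosslinking enzymes tested none was called, 1 was higher and none lower in all NTD libraries, and the median was -0.14. Lox, Loxl3 and Pxdn had negative log2 fold changes, of -0.74, -0.14 and -0.29. Transglutaminase 2 (Tgm2), which joins fibronectin and other proteins, had 126, 135 and 64.3 CPM in NTD libraries and 1.34, 14.4 and 26.0 CPM in control libraries, again apart (2.96 ± 0.85, edgeR adjusted p = 0.118). Loxl1, a lysyl oxidase of elastic fibres, had a log2 fold change of 1.06 ± 0.75.

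Receptors gave the one further call. Of 21 tested of 24 in the table, Sdc4 was called higher and none was called lower. In all NTD libraries 2 were higher and 2 lower than in all control libraries, and the list median was 0.16. Over all genes tested, 1.89% were called higher, and 12.4% were higher and 12.1% lower in all NTD libraries. Syndecan 4 is the heparan sulfate receptor that works with integrins at fibronectin adhesions. Sdc4 had 213, 137 and 75.3 CPM in NTD libraries and 7.50, 15.7 and 19.9 CPM in control libraries. The lowest NTD library was well above the highest control (142 ± 69.1 CPM in NTD and 14.4 ± 6.32 CPM in control brain, log2 fold change 3.30 ± 0.52, edgeR adjusted p = 0.0103). Matrix proteases and their inhibitors, 19 tested of 24, had no call, 5 higher and 3 lower in all NTD libraries and a median of 0.07. Mmp14, the membrane-bound collagenase, had 30.6, 52.9 and 92.4 CPM in NTD libraries and 7.72, 24.9 and 16.5 CPM in control libraries (1.84 ± 0.61, edgeR adjusted p = 0.168), and Adam12, a sheddase, had a log2 fold change of 2.26 ± 0.83 (edgeR adjusted p = 0.216).

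In mESC, folate withdrawal came with small differences in matrix transcripts. These values are the authors' deposited FPKM, with 1 library per group, so there is no replicate check and no test. Of 13 matrix genes with a mean of 5 FPKM or more, none was higher and 1, Vcan, was lower by 0.5 or more on the log2(FPKM + 1) scale, sizes that 5.29% (higher) and 4.81% (lower) of the 6771 genes at that level passed. Intervals below are 95% exact intervals of count ratios set for relative depth and cover counting error only.

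Of the 20 listed genes, 11 were of the basement membrane. Genes are listed here by peaks of another assay, so the level of an unlisted gene is not known. Embryonic stem cells are known to secrete laminin and type IV collagen when they turn to endoderm. Fibronectin was the most abundant, with 249 FPKM in FA0 and 216 FPKM in FA4 cells, a count ratio of 1.13 (1.10 to 1.16). Col18a1 followed with 153 FPKM in FA0 and 174 FPKM in FA4 cells. Nid2, a nidogen, had 140 FPKM in FA0 and 120 FPKM in FA4 cells. FA0 and FA4 levels were close for all 3 genes. Among laminins, Lamc1 had 56.4 FPKM in FA0 and 57.9 FPKM in FA4 cells, and Lamb1 had 26.2 FPKM in FA0 and 28.0 FPKM in FA4 cells. Agrn had 56.9 FPKM in FA0 and 55.5 FPKM in FA4 cells, and Hspg2 had 17.3 FPKM in FA0 and 16.6 FPKM in FA4 cells. For each of these 4 genes the FA0 and FA4 levels lay close together. Sparc had 53.7 FPKM in FA0 and 52.2 FPKM in FA4 cells, and Nid1 had 34.6 FPKM in FA0 and 29.5 FPKM in FA4 cells. Lama5 had 44.5 FPKM in FA0 and 58.8 FPKM in FA4 cells, a count ratio of 0.794 (0.758 to 0.832).

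Type IV collagen chains were somewhat higher in FA0, also by less than 0.5 on the log2(FPKM + 1) scale. Col4a1 had 39.6 FPKM in FA0 and 33.0 FPKM in FA4 cells, a count ratio of 1.13 (1.03 to 1.24). Col4a2 had 12.4 FPKM in FA0 and 9.07 FPKM in FA4 cells, a count ratio of 1.37 (1.19 to 1.57). In the RefSeq table these genes start head to head on chromosome 8, with their first 22 bases overlapping on opposite strands, and both lay in the same direction here. Vcan had 2.87 FPKM in FA0 and 11.4 FPKM in FA4 cells, a log2(FPKM + 1) ratio of -1.68. The count ratio was nearer to 1, at 0.557 (0.449 to 0.689) from 153 estimated counts in FA0 and 206 in FA4, so the FPKM and the counts differ in size though not in direction.

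Low genes have wide intervals. Lamb3, the beta chain of epithelial laminin, had 3.13 FPKM in FA0 and 1.59 FPKM in FA4 cells, and Col8a2 had 1.55 FPKM in FA0 and 0.63 FPKM in FA4 cells, a count ratio of 2.45 (1.35 to 4.70). Col2a1 had 1.42 FPKM in FA0 and 1.58 FPKM in FA4 cells. Summed FPKM of the listed basement membrane genes was 584 in FA0 and 584 in FA4 cells. For the listed fibrillar genes it was 252 in FA0 and 221 in FA4 cells, nearly all of it Fn1. Unlisted genes, Col1a1 and Col1a2 among them, are not in these sums, so the sums do not give the make-up of the matrix. Beside the brain values, Fn1 was higher and Vcan lower in both FA0 cells and NTD brain. Lama5 was lower in FA0 cells and higher in NTD brain, and Col8a2 was higher in FA0 cells and lower in NTD brain. These directions are weak in part. Fn1 levels were close in mESC, at a count ratio of 1.13, and Vcan was not called in brain (edgeR adjusted p = 0.34). Col8a2 in mESC rested on 49 counts in FA0 and 15 in FA4, at a mean of 1.09 FPKM. The brain and mESC comparisons differ in tissue, treatment and replication, and their difference was not tested.

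**Figure D5:**
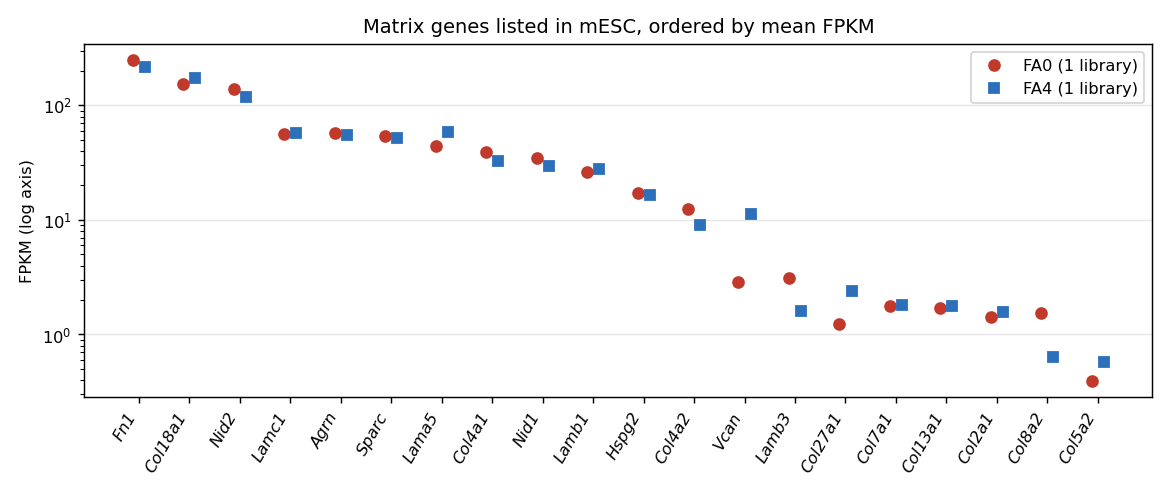
Deposited FPKM of the 20 matrix genes listed in mESC, on a log axis and ordered by mean level, with a red circle for FA0 and a blue square for FA4 (1 library each). The markers nearly coincide for most genes, and Vcan has the widest gap among genes with a mean of 5 FPKM or more.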

How the data were processed

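Libraries were made after ribosomal RNA depletion and read in pairs, per the labels' protocols. The submitters' processing notes name HISAT2 2.0.4, cutadapt 1.9.3 and, besides edgeR, HTSeq 0.9.1. Which annotation and which strand setting they used is not given in the sources used here, so reads of genes that overlap on opposite strands may not be separable. Per the file headers, the deposited brain values are raw gene counts, and the mESC table holds estimated counts and FPKM that the authors deposited, listed once per peak of another assay, with 1 entry per gene used. The deposited peak values, the deposited log2 ratio and p-values were not used.

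Matrix genes and gene lists were chosen with earlier results of these data known. Brain counts were tested in edgeR 4.0.16 (limma 3.58.1, R 4.3.3) with TMM scaling, filterByExpr and robust quasi-likelihood fits over 11626 genes, on all 6 libraries with no block. The fitting code was also run on simulated counts, and the outcome of that run is not given here. Replicate numbers are from the labels. Of the matrix genes, 1 is counted in the class totals and medians but not reported here by itself. Fold changes are fitted, and CPM are normalised by TMM. Exon lengths and coordinates are from GENCODE M21 (GRCm38), and shares between chains use CPM per kb of exon. Depth was 17335564 to 26788304 counts per brain library. In mESC the listed genes held 5247130 counts in FA0 and 3901966 in FA4, and the relative depth of 1.334 was taken over 2953 genes. A pseudocount of 1 FPKM was used. Genes are named if called, if on a list of core members, if among the 4 smallest p of a class or if groups do not overlap, and in other lists if called or else for the 2 smallest p. In mESC, genes with a mean of 5 FPKM or more and a log2 ratio past 0.5, and brain-named genes, are given. Alternatives were RLE scaling, library totals, other filters, a replicate block, limma-voom, DESeq2 1.42.0 and leaving out libraries.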

Additional observations from a re-analysis of the deposited data

How the results depend on the processing

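Against 2 matrix genes called higher and 1 lower in NTD brain, RLE scaling, a stricter filter (5 CPM in 3 libraries) and no filter gave the same genes. Library totals gave 1 higher (Fn1). DESeq2 gave 4 higher (Col18a1, Fn1, Lama5 and Lamc1) and 5 lower (Col17a1, Col2a1, Col6a2, Col8a1 and Col8a2), where it called 5.24% of all genes higher and 3.67% lower. limma-voom gave 2 higher and 0 lower. Without control library 1 and NTD library 3 there were 1 higher (Fn1) and 0 lower. Leaving out 1 library gave 0 to 1 higher and 0 to 1 lower, the lower one being Col6a2 without NTD library 2. The replicate block gave 1 higher (Fn1) and 0 lower. Whether the numbers pair the samples is not known. Same-numbered libraries deviated together with correlations of -0.0214, 0.0929 and 0.0310, and 3 of 6 libraries correlated best with their own number. With 3 libraries a group these values cannot settle a pairing. Of 27 named genes, 23 kept their direction in every fit. The others were not called, namely Agrn (-0.39 to 0.38 with 1 library left out, 0.43 without control library 1 and NTD library 3), Fbn2 (-0.37 to 0.20), Nid1 (-0.82 to 1.34) and Tnc (-1.98 to 1.34, and -0.69 with limma-voom), and the cause was not tested. The log2 difference in the ratio of basement membrane to fibrillar sums was 0.54 to 0.65 with the planned changes of class members or scale, and 0.46 to 0.77 without 1 library. Without Col1a1 and Col1a2, a setting chosen after seeing the data, it was 0.76. In mESC a minimum mean of 1 FPKM gave 2 higher (Col8a2 and Lamb3) and 2 lower (Col27a1 and Vcan), and a minimum of 10 FPKM gave 0 lower, since Vcan lies below it. With 3 libraries a group and swings between replicates, moderate differences of low genes could not be shown.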
